A study of Saccharomyces cerevisiae with 8 samples.

Results

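The mitochondrial ribosome of budding yeast, Saccharomyces cerevisiae, is built from ribosomal RNAs made in the organelle and from proteins that are nearly all encoded in the nucleus. The genes described here are 31 nuclear genes for proteins of its small subunit, those of the MRPS, MRP and RSM series together with NAM9, PET123, SWS2 and YMR31. They were chosen by systematic name, and all 31 were found among the 7122 features of the count table. By the current uniform nomenclature 19 of the 31 encode relatives of bacterial ribosomal proteins and 10 encode proteins of the mitochondrial class, which bacterial ribosomes lack. The other 2, RSM22 and YMR31, have no uniform name as ribosomal proteins. RSM22 encodes a methyltransferase-like factor tied to assembly of the small subunit. YMR31, also called KGD4, encodes a small subunit of the 2-oxoglutarate dehydrogenase complex and was isolated with the mitochondrial ribosome.

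RNA, and neither protein nor ribosomes, was measured by sequencing in 8 cultures, 2 biological replicates in each of 4 groups. All cultures were of strain W303 lacking PDR1 and PDR3, which encode related activators of drug-efflux pump genes, so the solvent controls carried the deletions too. Log-phase cells in galactose medium (CSM-galactose) received for 6 h either 0.8 µM clioquinol (CQ), a metal-binding 8-hydroxyquinoline, 20 µM of the DHPM-thione 10{3,3,1}, 20 µM of the DHPM-thione 11, or the solvent DMSO. The dihydropyrimidine-thione 10{3,3,1} is labelled the active compound and 11 the inactive one, and they are called the active and the inactive thione here. The growth protocol writes the doses in millimolar and names wild-type yeast, whereas the characteristics of the samples give micromolar doses and the deletion strain, which are used here.

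In galactose, yeast cells both ferment and respire. Mitochondrial ribosomes translate a handful of messages carried by the organelle's own genome, mainly core subunits of respiratory complexes III and IV and of the ATP synthase, so cells without a working small subunit cannot respire. Within the subunit, proteins with bacterial relatives mostly hold the ribosomal RNA fold and the decoding site, and the mitochondrial class surrounds them. Messages for mitochondrial ribosomal proteins are well-known targets of Puf3, an RNA-binding protein that recognises the motif TGTANATA (with U for T in RNA) in the stretch after the stop codon and is linked to their decay in glucose and to their translation when cells respire.

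Library totals ran from 12076141 to 19021672 counts, and between 67 and 4375 of these fell on any 1 of the 31 genes, so each member was measured well above the level that 3 counts represent. The members took between 0.160% and 0.354% of each library. The replicates of a group differed by far more than sampling noise, with a chi-square per degree of freedom between 22.8 in DMSO and 102.8 with CQ, and counted as separate samples. PDR1 and PDR3 had 0 counts in all 8 libraries. The galactose gene GAL1 stood between 5502 and 9643 CPM (TMM-scaled, the level used throughout). On the first principal component, which held 60.2% of the variance of all features, the CQ libraries lay apart from the other 6.

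All 31 genes have an uninterrupted coding sequence of 276 to 1887 bases in the RefSeq annotation of assembly R64, the assembly known as sacCer3. They are spread over 13 chromosomes, with 5 members each on chromosomes IV and XIV, and 16 lie on the plus and 15 on the minus strand. MRPS12 and RSM19 are tandem neighbours on chromosome XIV with 229 bases between them. MRP4 is the 1 member that overlaps another annotated coding gene, YHL005C, which had 0 to 2 counts per library. Whether counting used strand is not given in the sources used here. Reads of MRP4 and of that antisense gene could not be separated.

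Nearly all members share the Puf3-type motif TGTANATA, searched here on the transcribed strand in the 200 bases after the stop codon. It was present in 29 of the 31 members, or 93.5%, against 844 of 6008 nuclear protein-coding genes, or 14%. The genes without a match were RSM22 and YMR31, the pair that is not counted among the structural proteins of the subunit. The motif was found after all 44 genes of the large mitochondrial subunit, after 2 of 56 genes of the cytosolic small subunit and after 1 of 17 nuclear genes for subunits of respiratory complexes III and IV. The 29 members held 35 matches, of which 20 had A, 7 had C and 8 had T at the fifth base, which varies, and 31 of the 35 began within 100 bases of the stop codon. The sites below come from 4 members whose fall with CQ passed the test under every alternative tried, and from 4 members, chosen after their values were seen, whose CQ replicates fell on opposite sides of the DMSO libraries. The motif is in capitals and the flanks of 11 bases in lower case.
RSM28: tcttacataccTGTAAATAtctagtacgta
MRPS9: ttcgttattccTGTAAATAaagttatatgt
NAM9: tctctttacacTGTAAATAtttaatttttt
MRP1 site a: ttggtagtctcTGTAAATAtataaagtcaa
MRP1 site b: tattcgtaatgTGTATATAacgtggtctta
MRPS12: atacaacctttTGTAAATAgcaatgaccat
MRPS16 site a: tatgtatatgtTGTATATAtgttttacttg
MRPS16 site b: tctatcagactTGTAAATAatacatctatg
RSM18: atagttctgtcTGTAAATAtacaatatgta
SWS2: ttgtcactcccTGTATATAatgtatttgtt
The site of RSM28 lies at chrIV:1438036-1438065 (plus strand), that of MRPS9 at chrII:536224-536253 (plus strand), and those of MRP1 at chrIV:1170183-1170212 (plus strand) and chrIV:1170215-1170244 (plus strand). The site of NAM9 lies at chrXIV:368522-368551 (minus strand), that of MRPS12 at chrXIV:694269-694298 (minus strand), and those of MRPS16 at chrXVI:528881-528910 (minus strand) and chrXVI:528840-528869 (minus strand). The site of RSM18 lies at chrV:253886-253915 (minus strand) and that of SWS2 at chrXIV:476044-476073 (minus strand). Of the 29 members with a match 13 fell with CQ and 16 did not pass, and the 2 members without a match did not pass. Among the printed sites, NAM9, MRPS9, RSM28, MRPS12 and RSM18 have the form with A at the fifth base, as do 1 of the 2 sites of MRP1 and 1 of the 2 sites of MRPS16. A match describes these letters and does not show that Puf3 binds there. PUF3 itself stood at 85.1 and 101 CPM with CQ, 142 and 121 with the active thione, 97.6 and 122 with the inactive thione, and 123 and 119.6 in DMSO, and none of its differences from DMSO passed the test.

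**Figure D1:**
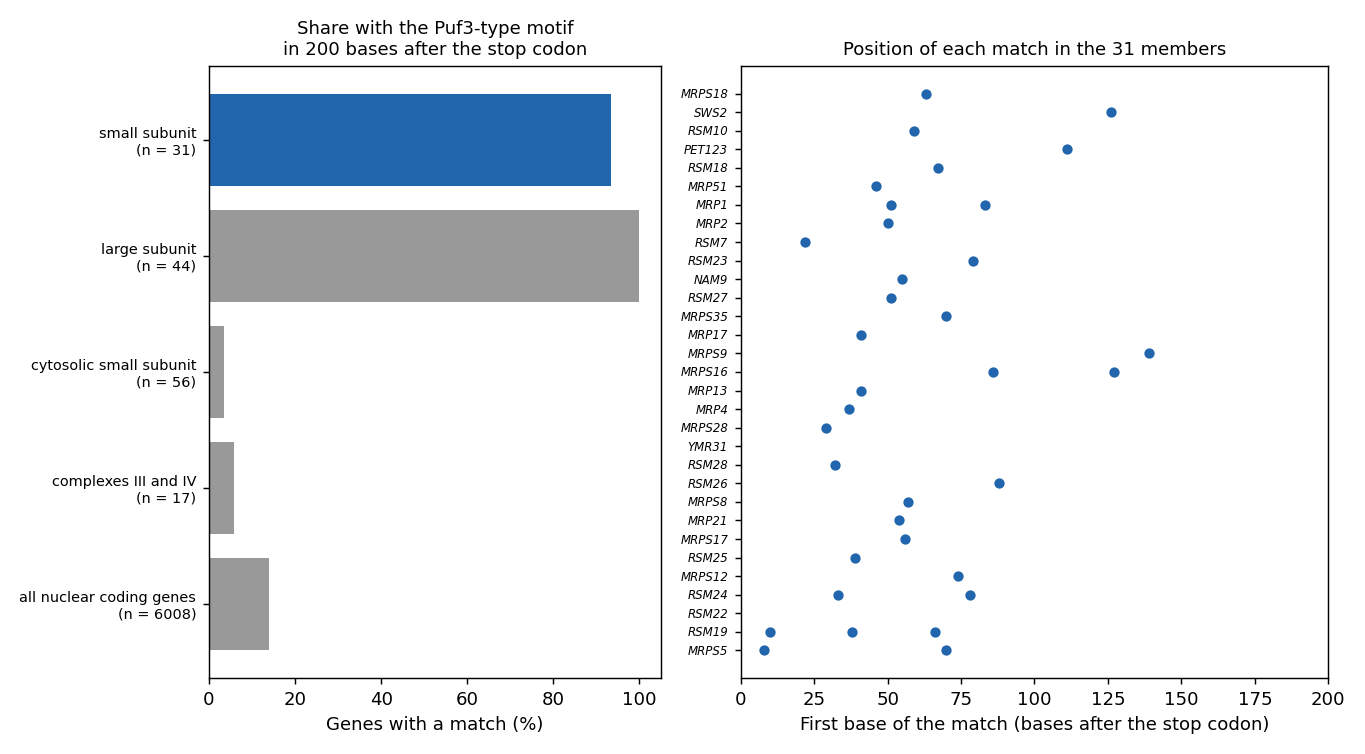
Left, percentage of genes with the Puf3-type motif in the 200 bases after the stop codon, for the 31 small-subunit members and for 4 other sets of genes (n beside each name). Right, bases from the stop codon to the first base of each match, 1 point per match, with RSM22 and YMR31 empty.

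Motifs upstream of the start codon did not set the members apart to that extent. In the 300 bases before the start codon, read on both strands, CCAAT (the core bound by the Hap2/3/4/5 complex) was found in 48.4% of members, 41.8% of all genes and 82.4% of the genes of complexes III and IV. CACCC, the core of the site of the iron regulators Aft1 and Aft2, was found in 16.1% of members and 19.6% of all genes. Of the motifs linked to genes of ribosome biogenesis in the cytosol and nucleolus, GATGAG was found in 19.4% of members and 19.1% of all genes, and AAAATTTT in 3.23% of members and 9.42% of all genes. AAAATTTT reads the same on both strands, and no motif searched contains another. The upstream stretch was shared with a divergently transcribed neighbour in 19 of the 31 members. The fixed window of 300 bases also reached into the coding sequence of a close neighbour, and some matches lay there. The CCAAT of RSM22 was 295 bases before the start codon, with a gap of 258 bases to the neighbour. That of RSM18 was at 283 bases, with a gap of 268.

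Levels between genes were compared per kilobase of coding length. In DMSO the members had a median of 87.1 CPM per kilobase, against 59.1 for the large mitochondrial subunit, 419 for the genes of complexes III and IV, 1418 for the cytosolic small subunit and 48.0 for all tested features with a coding length. They spanned 10.8-fold. MRPS18, the relative of bacterial S11, was highest at 335 CPM per kilobase, followed by SWS2 at 249 and RSM10 at 198. MRPS5 was lowest at 30.9, next to RSM19 at 35.1 and RSM22 at 36.4. In 25 of the 30 pairs of neighbours in this order the DMSO libraries overlapped, as for MRPS5, with 29.2 and 32.7 CPM per kilobase, and RSM19, with 30.3 and 39.9. The 5 pairs that did not overlap were MRPS17 and MRP21, RSM28 and YMR31, MRPS9 and MRP17, RSM10 and SWS2, and SWS2 and MRPS18.

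**Figure D2:**
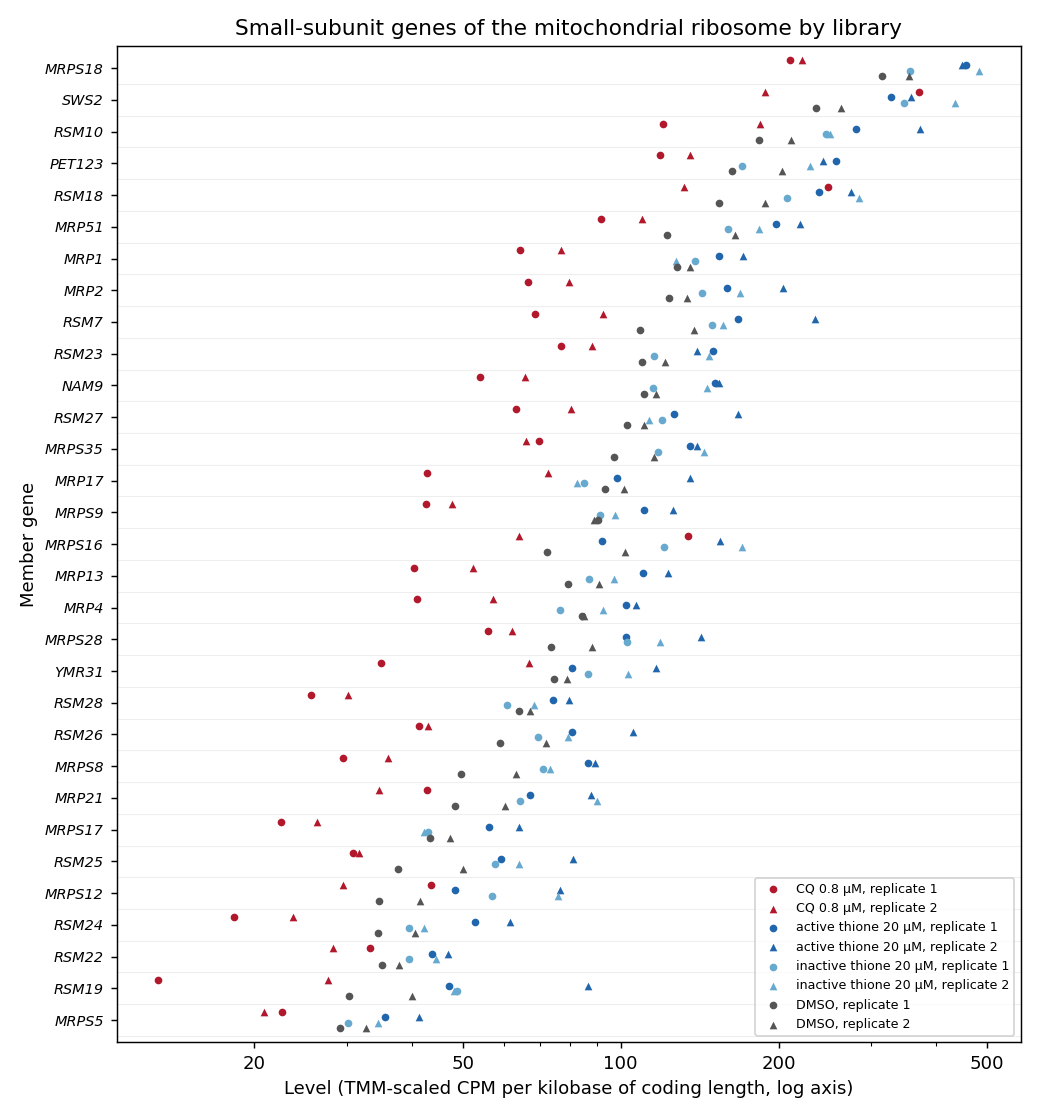
Level of each of the 31 members in each of the 8 libraries, in TMM-scaled CPM per kilobase of coding length on a log axis, with circles for replicate 1 and triangles for replicate 2. Genes are ordered by their mean in DMSO; for 26 of the 31 both CQ points lie left of both DMSO points.

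With CQ 13 of the 31 small-subunit genes fell and none rose at an adjusted p under 0.05 (edgeR quasi-likelihood test, adjusted over all 5696 features), where 8.39% of all features fell and 4.92% rose. The median log2 fold change was -0.61 over the members and 0.03 over all features tested. In 26 members both CQ libraries lay below both DMSO libraries, which was so for 27.6% of all features, and 28 members had a fold change below 0. The deepest fall, of RSM28, was 2.36-fold. In a bulk culture, fewer copies of a message per cell and fewer cells that hold it cannot be told apart.

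Among the mitochondrial class 6 of 10 members fell, with a class median of -0.64. RSM28 (YDR494W) stood at 27.8 and 32.7 CPM with CQ, 80.8 and 86.5 with the active thione, 65.9 and 74.1 with the inactive thione, and 69.5 and 73.0 in DMSO. RSM28 encodes mS46, known from genetic links to the translation of mitochondrial COX messages. Both CQ libraries lay below the other 6, and the change was -1.24 ± 0.15 (log2, SE), adjusted p = 0.000353. MRP1 (YDR347W), which encodes mS43 and has the fold of a superoxide dismutase, stood at 62.0 and 74.2 CPM with CQ, 149 and 165 with the active thione, 134 and 123 with the inactive thione, and 123 and 131 in DMSO. MRP13 (YGR084C), for mS44, stood at 41.2 and 53.4 CPM with CQ, 113 and 126 with the active thione, 88.8 and 99.1 with the inactive thione, and 80.8 and 92.8 in DMSO. All 4 thione libraries of MRP1 lay near or above the controls, and the CQ libraries were the lowest 2 of 8 for both genes. MRP1 fell by 0.90 with CQ (SE 0.15, adjusted p = 0.00279) and MRP13 by 0.88 (SE 0.17, adjusted p = 0.00701) on the log2 scale.

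The other members of that class that fell were RSM24, MRPS35 and RSM26. RSM24 (YDR175C, mS35) stood at 17.6 and 22.8 CPM with CQ, 50.6 and 59.1 with the active thione, 37.9 and 40.5 with the inactive thione, and 33.0 and 38.8 in DMSO. MRPS35 (YGR165W, mS45) stood at 72.4 and 68.4 CPM with CQ, 141 and 145 with the active thione, 122 and 149.9 with the inactive thione, and 101 and 120.2 in DMSO. RSM26 (YJR101W, mS42, another protein with a dismutase fold) stood at 33.1 and 34.3 CPM with CQ, 64.8 and 84.4 with the active thione, 55.8 and 63.4 with the inactive thione, and 47.1 and 57.7 in DMSO. None of the 3 overlapped between CQ and DMSO, and their log2 fold changes were -0.83, -0.65 and -0.63 (SE 0.18, 0.15 and 0.18; adjusted p = 0.015, 0.0222 and 0.0419). The 4 that did not pass were also below DMSO in both CQ libraries. RSM27 (YGR215W, mS33) stood at 21.0 and 26.8 CPM with CQ, 42.1 and 55.8 with the active thione, 39.9 and 37.6 with the inactive thione, and 34.2 and 37.0 in DMSO. RSM23 (YGL129C, mS29) stood at 104 and 119 CPM with CQ, 203 and 189.6 with the active thione, 156 and 199.5 with the inactive thione, and 149 and 164 in DMSO. RSM23 encodes a GTP-binding protein related to human DAP3. PET123 (YOR158W, mS26) stood at 114 and 129 CPM with CQ, 246 and 233 with the active thione, 163 and 219 with the inactive thione, and 156 and 194 in DMSO. RSM25 (YIL093C, mS23) stood at 24.5 and 25.2 CPM with CQ, 47.0 and 64.4 with the active thione, 45.7 and 50.9 with the inactive thione, and 29.9 and 39.7 in DMSO. Their fold changes lay between -0.58 for RSM27 and -0.48 for RSM25, with adjusted p between 0.0756 and 0.155.

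Among the 19 relatives of bacterial proteins 7 fell and the median was -0.61. MRPS9 (YBR146W), for uS9m, stood at 35.6 and 39.8 CPM with CQ, 92.6 and 105.3 with the active thione, 76.4 and 81.5 with the inactive thione, and 75.9 and 74.5 in DMSO. NAM9 (YNL137C), for uS4m, a protein at the decoding side of the subunit in which suppressors of mitochondrial stop mutations were found, stood at 78.6 and 96.0 CPM with CQ, 221 and 225 with the active thione, 168 and 213 with the inactive thione, and 162 and 171 in DMSO. In both genes the CQ libraries were the lowest 2 of the 8. MRPS9 changed by -0.997 ± 0.14 (log2, SE), adjusted p = 0.00112, and NAM9 by -0.93 ± 0.16 (log2, SE), adjusted p = 0.00412.

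MRPS17 (YMR188C, uS17m) stood at 16.1 and 18.8 CPM with CQ, 40.0 and 45.6 with the active thione, 30.6 and 30.1 with the inactive thione, and 30.9 and 33.7 in DMSO. MRP2 (YPR166C, uS14m) stood at 23.2 and 27.7 CPM with CQ, 55.6 and 70.9 with the active thione, 49.7 and 58.7 with the inactive thione, and 43.1 and 46.6 in DMSO. MRPS8 (YMR158W, uS8m) stood at 13.8 and 16.8 CPM with CQ, 40.5 and 41.8 with the active thione, 33.3 and 34.3 with the inactive thione, and 23.2 and 29.6 in DMSO. For these 3 genes the higher CQ library was below the lower DMSO library, and for MRPS8 the thione libraries were all above DMSO. The log2 fold changes were -0.89, -0.82 and -0.79 (SE 0.17, 0.18 and 0.18; adjusted p = 0.00592, 0.0145 and 0.0202). MRP4 (YHL004W, uS2m) stood at 48.4 and 67.6 CPM with CQ, 121 and 127 with the active thione, 90.7 and 109.6 with the inactive thione, and 99.9 and 101 in DMSO. MRPS18 (YNL306W, uS11m), the most abundant member per length, stood at 138 and 145 CPM with CQ, 298 and 293 with the active thione, 233 and 316 with the inactive thione, and 206 and 232 in DMSO. MRP4 fell by 0.79 and MRPS18 by 0.63 on the log2 scale (SE 0.18 and 0.17; adjusted p = 0.0166 and 0.0342).

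Leaving out libraries changed how many of these calls held, while all 13 fold changes stayed below 0 under every alternative. RSM28, MRPS9, NAM9 and MRP1 passed under every alternative, with fold changes between -1.39 and -0.78. Fewer members, and fewer of all features, passed without DMSO replicate 2, without CQ replicate 1 and without DMSO replicate 1. The members' median was then -0.52, -0.47 and -0.72, against -0.61 with all libraries. Without CQ replicate 2 more members, and more of all features, passed, and the median was -0.75. The members that passed there were all lower except SWS2. MRPS17 and MRP13 lost the call only without DMSO replicate 2 (adjusted p = 0.063 and 0.0676), and the other 7 lost it under 2 to 7 alternatives, with adjusted p up to 0.254.

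**Figure D3:**
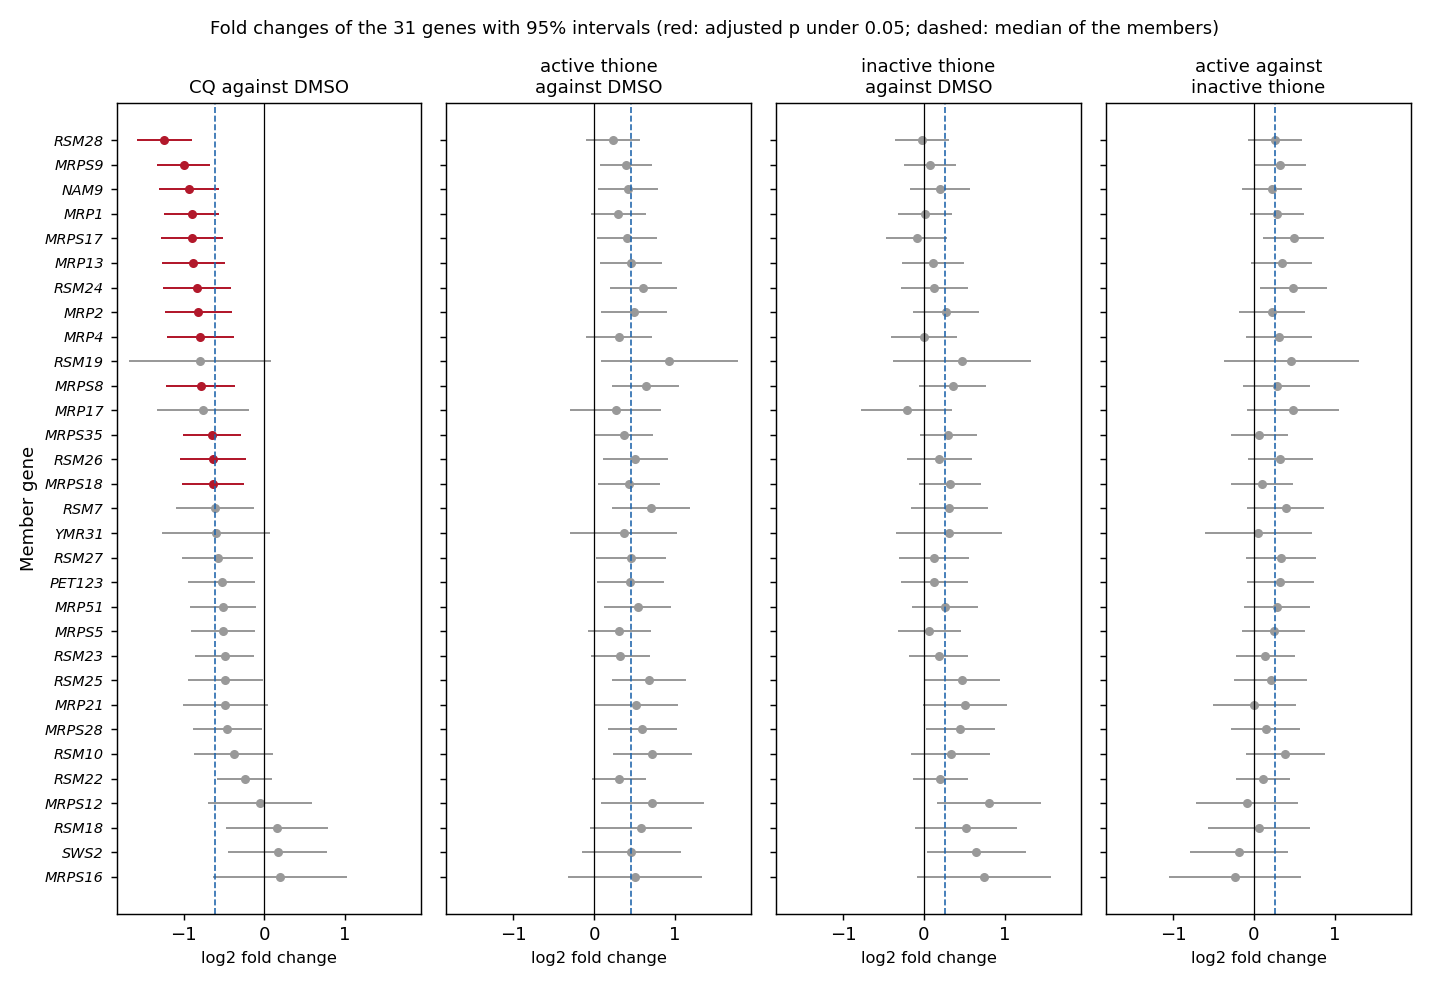
Log2 fold change of each member with its 95% interval in 4 comparisons, each on the same horizontal scale, ordered by the CQ comparison. Red points have an adjusted p under 0.05 (13 with CQ, none in the other panels) and the dashed line is the median of the 31 members.

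A further 12 bacterial-type members did not pass. Of these RSM7, MRP17, MRP51, MRPS5, MRPS28, MRP21 and RSM19 were below DMSO in both CQ libraries. RSM7 (YJR113C, uS7m) stood at 51.1 and 68.8 CPM with CQ, 125 and 175 with the active thione, 111 and 117 with the inactive thione, and 81.0 and 103 in DMSO. MRP17 (YKL003C, bS6m) stood at 16.9 and 28.8 CPM with CQ, 39.0 and 53.6 with the active thione, 33.6 and 32.7 with the inactive thione, and 36.9 and 40.2 in DMSO. MRP51 (YPL118W), which encodes bS1m and is tied genetically to the leaders of mitochondrial COX2 and COX3 messages, stood at 94.9 and 114 CPM with CQ, 205 and 228 with the active thione, 166 and 190.2 with the inactive thione, and 127 and 171 in DMSO. Their fold changes, -0.61, -0.76 and -0.51, did not pass, with adjusted p = 0.0893, 0.0802 and 0.0936. MRPS28 (YDR337W, uS15m) stood at 48.2 and 53.3 CPM with CQ, 88.0 and 123 with the active thione, 88.3 and 102 with the inactive thione, and 63.5 and 75.8 in DMSO. MRPS5 (YBR251W, uS5m) stood at 20.9 and 19.3 CPM with CQ, 32.8 and 38.1 with the active thione, 27.9 and 31.9 with the inactive thione, and 26.9 and 30.2 in DMSO. MRP21 (YBL090W, bS21m) stood at 22.8 and 18.5 CPM with CQ, 35.9 and 46.8 with the active thione, 34.3 and 48.1 with the inactive thione, and 25.8 and 32.1 in DMSO. These 3 had fold changes of -0.46, -0.51 and -0.48 that did not pass. RSM19 (YNR037C, uS19m) had the lowest counts of all members and stood at 3.61 and 7.64 CPM with CQ, 13.0 and 23.9 with the active thione, 13.5 and 13.3 with the inactive thione, and 8.37 and 11.0 in DMSO, with a CQ fold change of -0.79 and an interval from -1.66 to 0.08. RSM10 (YDR041W, uS10m), at 73.5 and 113 CPM with CQ, 172 and 227 with the active thione, 151 and 153 with the inactive thione, and 113 and 129 in DMSO, had its higher CQ library level with its lower DMSO library.

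In MRPS16, SWS2, RSM18 and MRPS12, a grouping made after their values were seen, the CQ replicates fell on opposite sides of the DMSO libraries. MRPS16 (YPL013C, bS16m) stood at 49.2 and 23.4 CPM with CQ, 33.8 and 56.5 with the active thione, 44.3 and 62.4 with the inactive thione, and 26.5 and 37.3 in DMSO. SWS2 (YNL081C, uS13m) stood at 160.3 and 81.4 CPM with CQ, 142 and 155 with the active thione, 149.9 and 188 with the inactive thione, and 102 and 114 in DMSO. RSM18 (YER050C, bS18m) stood at 104 and 55.2 CPM with CQ, 99.5 and 115 with the active thione, 86.6 and 119 with the inactive thione, and 64.1 and 78.7 in DMSO. In each of these 3 genes CQ replicate 1 was above both DMSO libraries and CQ replicate 2 was below both. MRPS12 (YNR036C, uS12m, the relative of the bacterial protein that sets decoding accuracy) was alike in order, at 20.0 and 13.6 CPM with CQ, 22.3 and 35.4 with the active thione, 26.2 and 35.1 with the inactive thione, and 15.98 and 19.1 in DMSO. The fold changes were 0.20, 0.17, 0.16 and -0.06, none past the threshold. Without CQ replicate 1 the first 3 became -0.45, -0.41 and -0.38, and without CQ replicate 2 SWS2 became 0.54 with an adjusted p of 0.0433. Over all members, 23 were higher in CQ replicate 2 than in replicate 1, and these 4 were among the 8 that were lower.

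The associated factors had smaller or less certain differences. RSM22 (YKL155C) stood at 62.6 and 53.4 CPM with CQ, 82.5 and 88.3 with the active thione, 74.4 and 83.8 with the inactive thione, and 66.2 and 71.2 in DMSO, a fold change of -0.24 that did not pass (adjusted p = 0.304). YMR31 (YFR049W) stood at 13.0 and 24.9 CPM with CQ, 30.0 and 43.4 with the active thione, 32.3 and 38.4 with the inactive thione, and 27.7 and 29.4 in DMSO, with a fold change of -0.60 and an adjusted p of 0.216. Its partners in the 2-oxoglutarate dehydrogenase complex all fell with CQ, KGD1 by 2.66, KGD2 by 2.00 and LPD1 by 0.77 on the log2 scale.

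Summed over the 31 members, the CQ libraries held 1612 and 1673 CPM, the active thione libraries 3125 and 3524, the inactive thione libraries 2631 and 3116, and the DMSO libraries 2248 and 2578. The CQ libraries thus lay below, and all 4 thione libraries above, both controls. The mean was 1642 ± 43.3 CPM with CQ against 2413 ± 233 in DMSO (SD, n = 2 each), a ratio of 0.681. An exact two-sided permutation test gave p = 0.333 for each group against DMSO, the smallest that 2 against 2 libraries allow. The 44 large-subunit genes summed to 1372 and 1351 CPM with CQ, 2711 and 3272 with the active thione, 2391 and 2748 with the inactive thione, and 1897 and 2188 in DMSO. The ratio of the small to the large subunit sum was 1.18 and 1.24 with CQ, 1.15 and 1.08 with the active thione, 1.1 and 1.13 with the inactive thione, and 1.19 and 1.18 in DMSO.

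**Figure D4:**
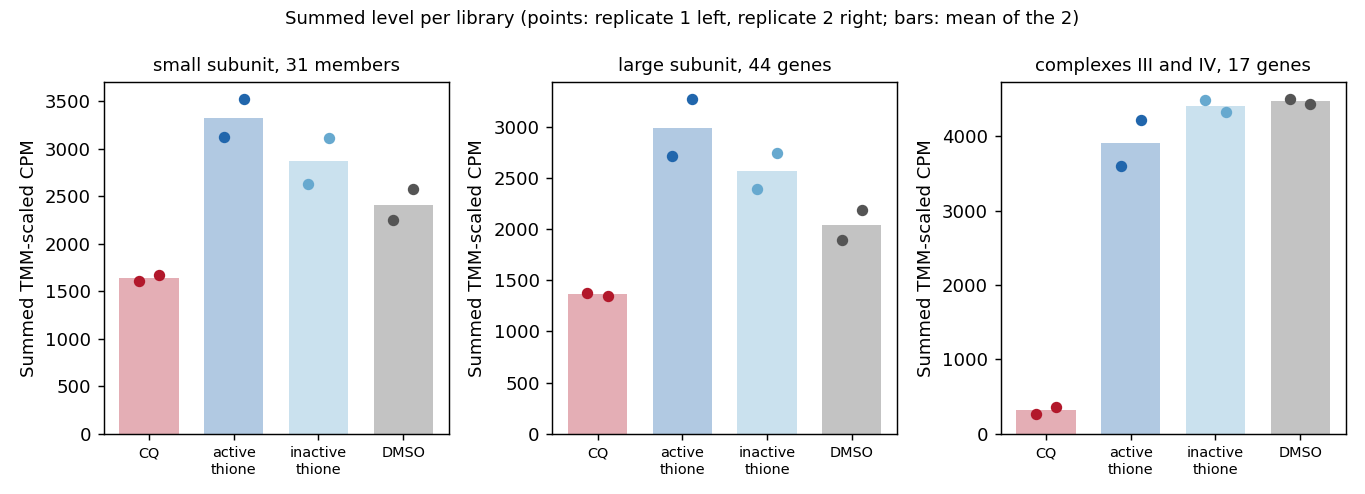
Summed level in TMM-scaled CPM of the 31 small-subunit members, 44 large-subunit genes and 17 genes of respiratory complexes III and IV in each library, with bars for the mean of the 2 replicates of a group. The small-subunit sum with CQ is 1612 and 1673 CPM against 2248 and 2578 CPM in DMSO, and that of complexes III and IV is 271 and 360 CPM against 4500 and 4436 CPM in DMSO.

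Other genes of the respiratory and mitochondrial translation machinery were read in the same comparison of CQ with DMSO. All 17 genes of complexes III and IV fell (median -3.96 on the log2 scale), while 12 of 44 large-subunit genes fell and the median of that list was -0.56. Of the 9 mitochondrial translation factors 4 fell, with a median of -0.66, among them the elongation factors MEF1 (-1.46) and TUF1 (-1.21), the initiation factor IFM1 (-0.66) and MEF2 (-0.83). Of 13 mitochondrial aminoacyl-tRNA synthetases 5 fell (median -0.61), and of 15 translational activators for particular mitochondrial messages 6 fell (median -0.45), led by CBP3 and CBP6, which serve cytochrome b. The factors for ribosome assembly and 15S ribosomal RNA had a median of -0.11 and 2 of 10 fell, MAM33 and RMD9. Both RPO41 (-1.21), the RNA polymerase of mitochondria, and its partner MTF1 (-0.85) fell. No gene of the 56 for the cytosolic small subunit passed in either direction (median -0.14).

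Of 4 tested genes for small-subunit proteins not among the 31, 1 fell with CQ. EHD3, for mS47, fell by 0.74 on the log2 scale, and QRI5 (also called COX24), MRP10 and FYV4 had fold changes of -1.20, -0.84 and -0.65 that did not pass. VAR1, the small-subunit gene carried by mitochondrial DNA, had 0 counts in both CQ libraries and only 1 to 5 in each of the others. It was under 1 CPM in every library and was not tested. Among regulators tied to mitochondrial genes, HAP4, the activating subunit of the Hap complex, fell by 2.28 and SFP1, a regulator of cytosolic ribosomal protein genes, rose by 0.52. The heat-shock gene HSP26, listed as a marker of stationary phase, rose with CQ, at 53.4 and 81.1 CPM with CQ against 9.99 and 10.8 in DMSO, while the other listed markers of that phase, HSP12 and SNZ1, had fold changes of -0.47 and 0.14 that did not pass. Of the 9 strain and growth markers tested the mating-type genes STE3 and MF(ALPHA)1 fell, by 0.60 and 1.41 on the log2 scale. Of 9 iron-shortage responders 8 rose and 1 fell. Their part in the values of the members was not tested.

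With the active thione every member had a higher mean than in DMSO, and none passed the test. The 31 fold changes lay between 0.23 for RSM28 and 0.94 for RSM19 with a median of 0.46, against 0.03 for all features. The members' median was 0.35 without active-thione replicate 2 and 0.61 without active-thione replicate 1. It was 0.36 without DMSO replicate 1 and 0.55 without DMSO replicate 2, and all 31 stayed above 0 in each case. In 29 members both active-thione libraries lay above both controls, which was so for 29.8% of all features. At an unadjusted p under 0.05 there were 20 of the 31 members and 786 of all 5696 features. The lowest adjusted p of a member was 0.153 for MRPS8, and 0 members passed in DESeq2. Of all features 1.37% passed in this comparison, 1.11% higher and 0.263% lower. With the replicate number as a block 1 member passed, RSM7, with a fold change of 0.70 and an adjusted p of 0.0384.

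The members with the highest fold changes were all relatives of bacterial proteins except RSM25. RSM19 had a mean of 18.4 ± 7.69 CPM with the active thione and 9.69 ± 1.87 CPM in DMSO (SD, n = 2 each, as for the means that follow), and its interval ran from 0.10 to 1.77. RSM10 averaged 199.6 ± 39.4 CPM with the active thione against 121 ± 11.8 CPM in DMSO, a log2 fold change of 0.72 (SE 0.21). MRPS12 averaged 28.9 ± 9.30 CPM with the active thione against 17.6 ± 2.23 CPM in DMSO, a log2 fold change of 0.72 (SE 0.28). RSM7 and RSM25 followed, at 0.71 and 0.68. All 5 intervals lay above 0 before adjustment. At the other end RSM28 averaged 83.7 ± 3.98 CPM with the active thione against 71.3 ± 2.42 CPM in DMSO, a log2 fold change of 0.23 (SE 0.14). MRP17, MRP1, MRP4 and MRPS5 lay between 0.27 and 0.31. RSM28 was therefore both the member with the deepest fall with CQ and the one with the smallest difference with the active thione, against the same DMSO libraries.

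Other gene lists of the mitochondrial translation system were read in the comparison of the active thione with DMSO. All 44 large-subunit genes had a fold change above 0 with the active thione, with a median of 0.54, and none passed. The aminoacyl-tRNA synthetases had a median of 0.61, 13 of 13 above 0 and none passed. Of the 9 translation factors 2 rose, MEF1 by 0.80 and the release factor MRF1 by 0.80 on the log2 scale (adjusted p = 0.0345 for each), and the median was 0.56. The factors for ribosome assembly and 15S ribosomal RNA had a median of 0.25 and the 4 tested small-subunit proteins not among the 31 a median of 0.24, and no gene of either list passed. The activators for particular messages had a median of 0.09, the genes of complexes III and IV -0.24 and the cytosolic small subunit -0.10, with no gene past the threshold in these 3 lists.

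**Figure D5:**
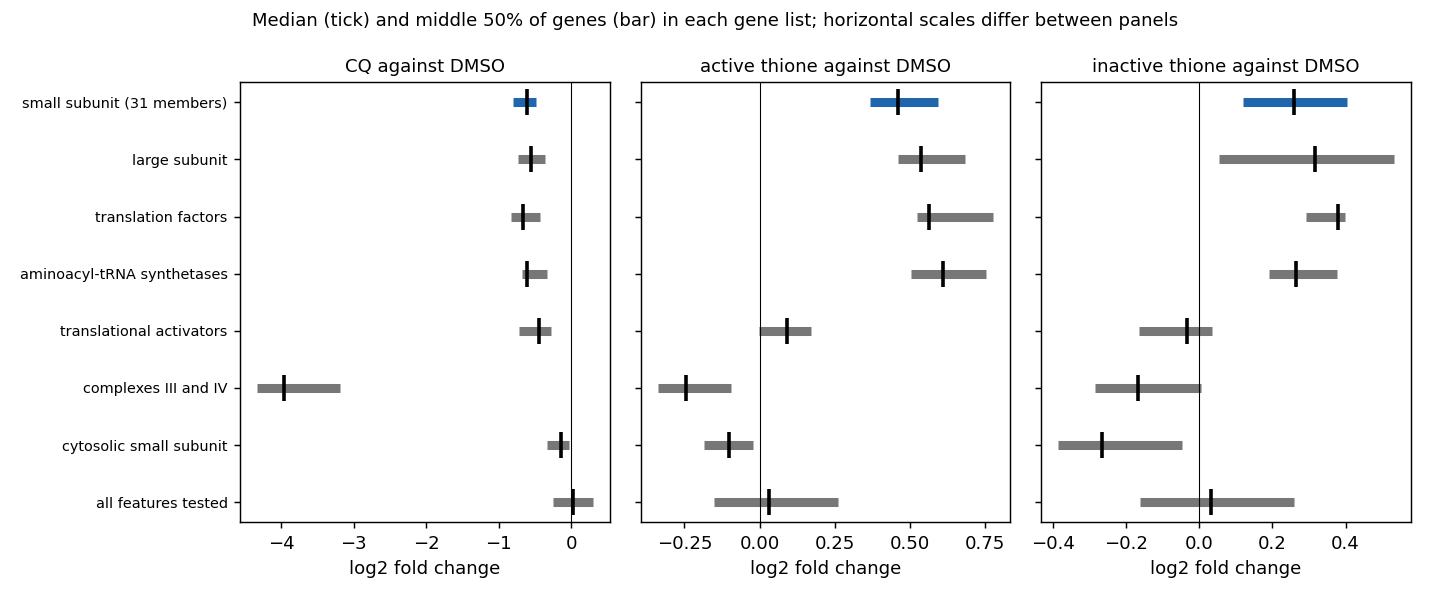
Median log2 fold change (tick) and the middle 50% of genes (bar) for the small-subunit members, 6 other gene lists and all features tested, against DMSO; the horizontal scales differ between panels. With the active thione the medians of the members (0.46), large subunit (0.54), translation factors (0.56) and aminoacyl-tRNA synthetases (0.61) lie apart from that of all features (0.03).

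The members also differed together between replicates. Within each group most members were higher in replicate 2 than in replicate 1, 23 of 31 with CQ, 28 with the active thione, 26 with the inactive thione and 30 in DMSO. The median log2 ratio of replicate 2 to replicate 1 was 0.23, 0.21, 0.19 and 0.20 in those groups, where the median of all features lay between 0.0034 and 0.0134. This gap between replicates is smaller than the median difference between the active thione and DMSO and about as large as that between the inactive thione and DMSO. Each group held 1 library of each replicate number. With the replicate number as a block, the members' median against DMSO was 0.46 for the active and 0.27 for the inactive thione. Without the block it was 0.46 and 0.26. With 1 library of each number in every group, a block hardly moves a fold change. The likeness of these medians therefore follows from the design and does not bear on the gap. The part of the gap in the results was not tested.

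With the inactive thione no member passed either, and the fold changes spread to both sides of 0. The median was 0.26, 27 members were above 0, 18 had both libraries above both controls, and 2, MRP17 and MRPS17, had both below. The median was 0.13 without inactive-thione replicate 2 and 0.16 without DMSO replicate 1, with 24 members above 0 and 7 below in each case. Among all features 32.2% had both libraries above and 26.4% both below, and 0.158% passed the test, 0.14% higher and 0.0176% lower. At an unadjusted p under 0.05 there were 5 of the 31 members and 739 of all 5696 features. The lowest adjusted p of a member was 0.369, and DESeq2 also passed 0 members. The highest were MRPS12 at 0.81, MRPS16 at 0.75, SWS2 at 0.65, RSM18 at 0.53 and MRP21 at 0.51. These include the 4 genes whose CQ replicates lay on opposite sides of DMSO. That grouping was made after the values were seen and from the same DMSO libraries, so the 2 descriptions are not independent. The lowest were MRP17 at -0.22, MRPS17 at -0.09, RSM28 at -0.03, MRP4 at -0.0022 and MRP1 at 0.01. The bacterial-type members had a median of 0.33 and the mitochondrial class 0.13. Large-subunit genes had a median of 0.32, translation factors 0.38 and aminoacyl-tRNA synthetases 0.26, again with none past the threshold.

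At the same dose of 20 µM the active and inactive thiones did not differ in any member past the threshold. The median log2 fold change of active over inactive was 0.26 and 28 members were above 0, and in 17 both active-thione libraries lay above both inactive-thione libraries, against 15.4% of all features. The median was 0.13 without active-thione replicate 2 and 0.15 without inactive-thione replicate 1, with 22 members above 0 and 9 below in each case. Of all features 0.123% passed, 0.0878% higher and 0.0351% lower with the active thione. MRPS17 averaged 42.8 ± 3.96 CPM with the active thione and 30.4 ± 0.360 CPM with the inactive one (SD, n = 2 each), a log2 fold change of 0.50 (SE 0.16). RSM24 averaged 54.8 ± 6.01 CPM with the active and 39.2 ± 1.88 CPM with the inactive thione, a log2 fold change of 0.48 (SE 0.18). MRPS9 averaged 99.0 ± 8.94 CPM with the active and 79.0 ± 3.62 CPM with the inactive thione, a log2 fold change of 0.33 (SE 0.14). These 3 were the members with an unadjusted p under 0.05, as were 211 of all 5696 features. The lowest adjusted p of a member was 0.935, and DESeq2 passed 0 members. RSM19 and MRP17 had fold changes of 0.47 and 0.48, and MRPS16, SWS2 and MRPS12 were below 0, at -0.24, -0.19 and -0.08. The 95% intervals of the 31 differences together ran from -1.05 to 1.29, so the data do not show that the compounds act alike on these genes. The summed level averaged 3325 ± 283 CPM with the active thione and 2873 ± 343 CPM with the inactive one (SD, n = 2 each). The lower active-thione library, at 3125 CPM, lay barely above the higher inactive-thione library, at 3116 CPM.

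CQ was also set against the inactive thione, at doses that differ, 0.8 µM and 20 µM. In this comparison 21 of the 31 members were lower with CQ and none higher, where 10.1% of all features were lower and 3.23% higher. The median was -0.91, all 31 were below 0, and in 28 both CQ libraries lay below both inactive-thione libraries, against 26.1% of all features. All 10 members of the mitochondrial class passed, 11 of 19 bacterial-type members and neither associated factor. The lowest that passed were RSM28 at -1.21, MRPS8 at -1.14, NAM9 at -1.13, MRP2 at -1.09 and MRPS9 at -1.07, with adjusted p between 0.000397 and 0.0027. The 8 members that passed here and not against DMSO were MRP21, RSM25, RSM7, MRPS28, MRP51, RSM27, RSM23 and PET123, with fold changes from -0.99 to -0.65. RSM19 had the lowest value, -1.26, without passing (adjusted p = 0.0613). RSM18, RSM22, SWS2, MRP17 and MRPS16 were nearest to 0, at -0.37, -0.45, -0.48, -0.54 and -0.55, and none of these passed. The CQ and inactive-thione libraries overlapped in RSM18, SWS2 and MRPS16. Of the 21 calls 10 held whichever library was left out, and PET123 and RSM27 lost theirs most often, with adjusted p up to 0.316 and 0.161. Without inactive-thione replicate 2 fewer members, and fewer of all features, passed, and the median was -0.75. These 2 CQ comparisons share the CQ libraries, as all comparisons with DMSO share its libraries, so their values are not independent.

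Genes outside the ribosome lists that carry the Puf3-type motif gave a further description of the same contrasts. The 744 tested genes with a match, mitochondrial ribosome lists left out, had a median log2 fold change of -0.09 with CQ, 0.17 with the active thione and 0.08 with the inactive thione. The 4702 genes without a match had medians of 0.06, 0.01 and 0.02 in those comparisons, which share the DMSO libraries. With CQ 111 of the 744 genes with a match fell (14.9%) and 24 rose (3.23%), and of the 4702 without a match 335 fell (7.12%) and 255 rose (5.42%). With the active thione 1 gene with a match fell (0.134%) and 14 rose (1.88%), and of those without a match 14 fell (0.298%) and 49 rose (1.04%). The members' own medians were farther from 0, at -0.61, 0.46 and 0.26. Only the mitochondrial ribosome lists were left out, and other genes of mitochondrial translation were kept. Carrying the motif and serving mitochondria were therefore not separated here. Any part of the motif or of Puf3 in these values was not tested.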

How the data were processed

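RNA from 8 yeast cultures, 4 groups of 2 biological replicates as the labels group them, was analysed from raw read counts per feature deposited by the authors in a single table. The submitters' processing notes name HTSeq, DESeq, TopHat and TopHat2 2.1.1, with genome build sacCer3. How reads were assigned to features, by which annotation and strand, is not given in the sources used here. The table also holds the authors' normalized values, which were not used. Of 7122 features 725 had no count, and RefSeq R64 (sacCer3) named 6045. 4 empty lines were left out.

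The test was two-sided quasi-likelihood in edgeR 4.0.16 (R 4.3.3), fitted to all 8 libraries at once by group, after TMM scaling and filterByExpr, with Benjamini-Hochberg adjustment over the 5696 features left (threshold 0.05). All 31 members passed the filter. Levels are CPM after TMM scaling, and each SE was derived from the log2 fold change and its F statistic. The procedure was tested on simulated data. Precision is set by 2 libraries per group, with totals of 12076141 to 19021672 counts, rather than by counting error. Alternatives were RLE, upper-quartile and library-total scaling, no filter, the compared groups alone, a replicate block, DESeq2 1.42.0 and leaving out each library. Members called in any comparison, the 5 highest and 5 lowest fold changes per comparison and the 3 highest and lowest levels per length were described. Other lists were given by counts, median and up to 4 genes of smallest p. Members and lists were chosen with earlier results of these data known. The CQ and active thione groups were not compared directly here.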

Additional observations from a re-analysis of the deposited data

How the results depend on the processing

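The direction of the median over the members held in all 5 comparisons under every alternative, but its size was 0.13 to 0.35 in the inactive thione against DMSO and 0.13 to 0.35 in active against inactive thione when a library was left out, against 0.26 in each with all libraries. CQ against DMSO gave 13 members lower, between 9 (compared groups alone) and 19 (replicate block) under the other alternatives, with 18 in DESeq2 and 11 with library totals, and between 4 and 22 when a library was left out (7 without CQ replicate 1, 22 without CQ replicate 2, 8 without DMSO replicate 1, 4 without DMSO replicate 2). The active thione against DMSO gave 0 members and 1 with the replicate block. CQ against the inactive thione gave 21, between 10 and 25 when a library was left out (10 without inactive-thione replicate 2), with a median between -0.99 and -0.75. Fold changes turned sign in CQ against DMSO for MRPS16 (-0.45 without CQ replicate 1, -0.04 without DMSO replicate 1), RSM18 and SWS2 (-0.38 and -0.41 without CQ replicate 1). Their highest values, without CQ replicate 2, were 0.60, 0.51 and 0.54. In the inactive thione against DMSO, MRP4 turned to 0.0344, 0.13 and 0.0032 and RSM28 to 0.0098, 0.0565 and 0.0095, with library totals, without inactive-thione replicate 1 and without DMSO replicate 2, and were lowest, -0.16 and -0.13, without inactive-thione replicate 2. In active against inactive thione, MRPS12 turned to 0.21 and MRPS16 to 0.0835 without active-thione replicate 1, RSM19 to -0.0434 without active-thione replicate 2, and MRPS12 to 0.13 and MRPS16 to 0.02 without inactive-thione replicate 2. The other ends of their ranges were -0.46 for MRPS12 and -0.66 for MRPS16, without active-thione replicate 2, and 0.83 for RSM19, without active-thione replicate 1. The cause was not tested. RSM19 passed in CQ against the inactive thione with no filter, the replicate block, DESeq2 and without CQ replicate 2. Over all features the active thione called 78 against DMSO, 174 with the replicate block, 183 in DESeq2, 133 with the compared groups alone and 4 to 108 with a library left out, and the inactive thione 9, 54 in the block and 84 in DESeq2. The replicate numbers name samples and are not stated to mark shared cultures or days. Deviations of same-numbered libraries correlated over features between 0.33 and 0.43 among the 2 thione groups and DMSO. In pairs with CQ the correlation lay between -0.15 and 0.215, so the block is a description. Where a group is left with 1 library, that library was assumed to vary like the other groups. The median of the members' standard errors was 0.18 in CQ against DMSO and 0.179 in the active thione against DMSO, from 2 libraries per group.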
